A study of Mus musculus with 10 samples.

Results

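The SLAM (signaling lymphocytic activation molecule) family receptors and their adaptor EAT-2 were examined in cultured mouse peritoneal macrophages, over 5 control and 5 ox-LDL libraries. The set holds 9 genes of the 12654 that were tested, namely the receptor genes Slamf1, Slamf6, Slamf7, Slamf8, Slamf9, Cd48, Cd84 and Ly9, and Sh2d1b1, which encodes EAT-2. The 8 receptor genes were taken as members of the family, in a list drawn up with earlier results of these data known. Sh2d1b1 was chosen by its strong fall in counts in the same comparison, so its values are given as a description and carry no test. The cells came from C57BL/6 mice aged 8 weeks and were collected on the third day after a thioglycollate injection, a sterile irritant that draws macrophages into the peritoneal cavity. Control cells are labelled untreated. The ox-LDL cells were primed with 100 ng/ml of LPS, the endotoxin of Gram-negative bacteria, and then received 100 µg/ml of oxidized low-density lipoprotein, the modified lipoprotein of atherosclerotic lesions, for 16 h. By these labels the effects of LPS and of ox-LDL cannot be told apart. The wording of the study leaves room for controls that had received the LPS priming too, in which case the comparison would be of ox-LDL alone, and the protocol field shared by all samples does not settle it. The sex of the animals is not given in the sources used here, and the design text counts 5 biological replicates a group.

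SLAM family receptors are cell-surface proteins of blood cells with immunoglobulin domains, and most of them bind a copy of themselves on a neighboring cell. Several carry tyrosine switch motifs in the cytoplasmic tail that recruit small SH2-domain adaptors, namely SAP, mainly in T cells and NK cells, and EAT-2, in NK cells and myeloid cells. Other tails and the membrane-anchored CD48 lack such motifs. In macrophages, family members are known for roles in phagocytosis, in the handling of Gram-negative bacteria and in the control of the oxidative burst.

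Total counts ran from 20094647 to 20687289 in control libraries and from 19257131 to 20358017 in ox-LDL libraries. Levels below are CPM, counts scaled to library size, with library sizes corrected by the trimmed mean of M-values (TMM), unless FPKM, a length-scaled level, is named. A gene passed the test when its p by the quasi-likelihood test of edgeR, corrected by Benjamini-Hochberg over all genes tested, was below 0.01. The scaling factors spanned 0.593, in ox-LDL 2, to 1.19, in ox-LDL 1, and ox-LDL 2 decided several borderline results below. The median log2 fold change of all genes tested was 0.10, against -0.09 when libraries were scaled by their totals alone, and folds are to be read against that shift. Whether a bulk level falls through fewer cells of a type or through less RNA per cell cannot be told apart.

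The label of the cells was checked against marker lists, each given as a summed level scaled by library totals. All 7 macrophage markers exceeded 1 CPM, with sums of 23070 to 42750 CPM in control and 12990 to 28180 CPM in ox-LDL libraries. Lyz2 carried these sums (means of 28730 and 14310 CPM) and Itgam was also lower with ox-LDL, while the means of the other 5 were higher, Adgre1 among them (290.7 and 1137 CPM). The 8 NK cell markers summed to 0.559 to 1.502 CPM and 0.266 to 1.85 CPM, and Ncr1, Eomes and Prf1 never exceeded 3 counts. T cell markers summed to 1.26 to 1.95 CPM and 1.57 to 3.82 CPM with Cd3e and Cd3g at no more than 3 counts, and B cell markers summed to 1.13 to 2.95 CPM and 0.659 to 3.57 CPM. Lymphocyte and NK cell transcripts were thus scarce in both groups. The sum of neutrophil markers went from 6.95 to 15.9 CPM in control to 13.2 to 90.3 CPM in ox-LDL libraries, carried by S100a8. Cxcr2, S100a9 and Retnlg had lower means with ox-LDL (0.502 and 0.0515, 0.0801 and 0.0499, and 0.441 and 0.280 CPM). Mpo and Elane stayed at no more than 3 counts. Eosinophil and mast cell markers summed to 3.21 to 11.6 CPM and 0.783 to 3.30 CPM, with Prg2 and Fcer1a at no more than 3 counts. Dendritic cell markers summed to 1.06 to 2.65 CPM and 4.82 to 14.6 CPM, led by Ccr7 in ox-LDL libraries, and the megakaryocyte and platelet list summed to 62.5 to 125.8 CPM and 66.5 to 347 CPM, carried by Pf4 and Rgs18, while Gp1bb and Gp9 never exceeded 3 counts.

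The receptors moved in both directions. Slamf1, Slamf6, Slamf7 and Slamf8 rose in ox-LDL-treated macrophages, Cd48 fell, and Ly9, Cd84 and Slamf9 did not pass the test. Of the 8 receptors, 4 passed as higher, where 9.4% of all genes tested did, and 1 passed as lower, where 5.35% did. Their median log2 fold change was 1.62. The groups did not overlap for 5 receptors in the higher direction and for 2 in the lower, against 11.6% and 9.11% of all genes tested. With a log2 fold change beyond 2 also required, 4 receptors passed as higher (4.78% of all genes) and 0 as lower (1.93%), Cd48 being just short of it. Slamf1 entered the test through its ox-LDL libraries alone, so it had to differ, and leaving it out takes 1 from each count of higher receptors. The median log2 fold change without Slamf1 is the value of Ly9, 1.19.

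**Figure D1:**
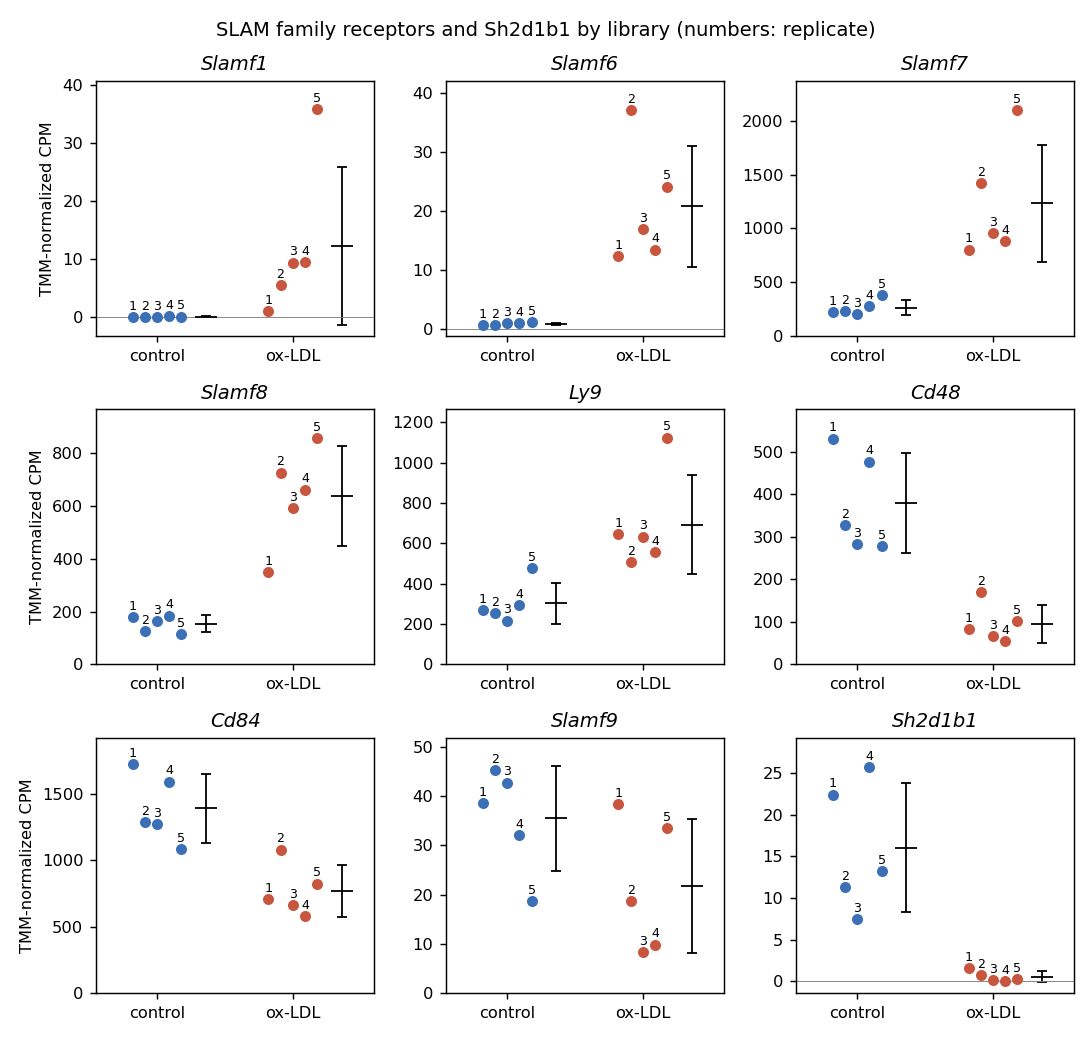
TMM-normalized CPM of each gene in each library, with the replicate number beside each point and the mean ± SD to the right of each group, on a linear axis per gene. The groups are apart for every gene except Slamf9, and ox-LDL 5 is the highest library for Slamf1 (35.8 CPM), Slamf7 (2098 CPM), Slamf8 (857 CPM) and Ly9 (1123 CPM).

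Slamf7, also known as CRACC or CD319, is a self-binding receptor that uses EAT-2 in NK cells and takes part in the phagocytosis of blood tumor cells by macrophages. Its control levels were 221, 228, 205, 278 and 382 CPM, and its ox-LDL levels were 802, 1419.7, 955, 882 and 2098 CPM. Every ox-LDL library lay above every control library, and replicate 5 was the highest in each group. The mean rose from 263 ± 72.3 CPM to 1231 ± 541 CPM (SD, n = 5), a log2 fold change of 2.23 with a standard error of 0.33 (adjusted p = 4.95e-04). Without ox-LDL 5 the log2 fold change was 1.96 (adjusted p = 0.00101).

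Slamf8, or BLAME, is a myeloid receptor with a short tail that restrains the NADPH oxidase of macrophages. The control libraries held 180.3, 128, 164, 185 and 115 CPM and the ox-LDL libraries 351, 727, 593, 662 and 857 CPM. The lowest ox-LDL library, replicate 1, was still above the highest control library. The mean rose from 154 ± 31.4 CPM to 638 ± 188 CPM (SD, n = 5), with a log2 fold change of 2.05, a standard error of 0.27 and an adjusted p of 2.61e-04.

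The start regions of Slamf7 and Slamf8, which rose together, are shown with matches to 4 motifs of inducible myeloid genes in capitals. The windows are RefSeq sequences of GRCm38.p6, from 250 bases before to 50 bases after the start of the gene, each read on the gene's own strand, and the counts themselves were made on mm9. Slamf7 is at chr1:171648950-171649249 and Slamf8 at chr1:172590519-172590818, both on the minus strand.
Slamf7: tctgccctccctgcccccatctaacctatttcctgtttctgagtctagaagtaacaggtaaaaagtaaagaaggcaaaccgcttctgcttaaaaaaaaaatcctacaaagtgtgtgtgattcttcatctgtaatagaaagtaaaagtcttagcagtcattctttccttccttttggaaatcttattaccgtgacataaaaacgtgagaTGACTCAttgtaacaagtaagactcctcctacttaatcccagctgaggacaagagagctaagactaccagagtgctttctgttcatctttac
Slamf8: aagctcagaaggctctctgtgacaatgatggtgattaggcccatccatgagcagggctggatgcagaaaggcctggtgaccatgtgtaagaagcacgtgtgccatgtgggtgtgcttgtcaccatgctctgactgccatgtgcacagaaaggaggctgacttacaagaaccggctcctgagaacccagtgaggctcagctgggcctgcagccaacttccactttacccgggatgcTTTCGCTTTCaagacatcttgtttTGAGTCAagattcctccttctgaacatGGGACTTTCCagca
The motifs, searched on both strands, were kappaB (3 G, any 2 bases, 3 T and 2 C), ISRE (GAAA, any 2 bases, GAAA), AP-1 (TGANTCA) and PU.1 (GAGGAAGT), in which N is any base, and no match overlapped another. They were chosen with the results known. Of the 32851 windows in the table, 1.63% held the kappaB letters, 3.44% the ISRE letters, 7.81% the AP-1 letters and 3.2% the PU.1 letters. The Slamf7 window held AP-1 letters (TGACTCA) starting at -42, with positions counted from the first base of the gene as 0. The Slamf8 window held ISRE letters on the opposite strand (TTTCGCTTTC) at -15, AP-1 letters (TGAGTCA) at 9 and kappaB letters (GGGACTTTCC) at 36. Of the 9 genes, 8 had a window in the table, Ly9 being the other. The Slamf1, Slamf6 and Cd48 windows held none of the 4 motifs, the Cd84 window had AP-1 letters (TGAGTCA) at -229 and the Slamf9 window PU.1 letters (GAGGAAGT) at -8. These are matches of letters and do not show binding.

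Slamf6, or Ly108, is best known as a self-binding receptor of T cells, B cells and NK cells. It was near 1 CPM in all control libraries, at 0.719, 0.642, 0.941, 1.03 and 1.13 CPM, and reached 12.3, 37.1, 16.9, 13.4 and 24.1 CPM with ox-LDL. The counts were 13 to 26 in control libraries and 281 to 433 in ox-LDL libraries, and every ox-LDL library lay above every control library. The mean rose from 0.892 ± 0.206 CPM to 20.8 ± 10.2 CPM (SD, n = 5), with a log2 fold change of 4.53, a standard error of 0.36 and an adjusted p of 1.23e-05. Of the marker sums given above, that of dendritic cells was higher over its whole range with ox-LDL (4.82 to 14.6 CPM against 1.06 to 2.65 CPM). Ccr7 led it, with means of 0.180 CPM in control and 4.37 CPM with ox-LDL. Clec9a, Zbtb46, Xcr1 and Flt3 also had higher means with ox-LDL. Dpp4 had a lower one (0.4625 and 0.207 CPM) and Siglech stayed level (0.0601 and 0.0599 CPM). The sums of T cell, B cell and NK cell markers were higher at the top of their range with ox-LDL. At the bottom of the range, the B cell and NK cell sums were lower. The part of these cells in the Slamf6 level was not tested.

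Slamf1, the founding receptor known as CD150, acts in macrophages as a sensor of Gram-negative bacteria and in T cells as a co-stimulator. It was all but absent from control cells, with 1, 0, 1, 3 and 3 counts, and had 24, 64, 193, 199 and 599 counts in the ox-LDL libraries. In CPM the control libraries ran from 0 to 0.155 and the ox-LDL libraries were at 1.04, 5.48, 9.41, 9.52 and 35.8. Each ox-LDL library exceeded each control library, but the ox-LDL libraries also differed widely among themselves, so that their SD (13.6 CPM) was larger than their mean (12.2 CPM). Summed over libraries, 1079 counts with ox-LDL stood against 8 in control, a ratio of 155.8 once divided by the summed TMM-corrected library sizes, with an exact 95% interval of 78.8 to 361.9 that covers counting error only. Fitted on the log2 scale, the change was 7.24 ± 1.01 (standard error), with an adjusted p of 3.36e-04, and 6.28 without ox-LDL 5 (adjusted p = 3.72e-04). Slamf1 passed the filter on low counts in 0 control and 5 ox-LDL libraries, so a difference was required for it to be tested, and these p values add nothing to the counts themselves. On the log2(FPKM + 1) scale with no filter, the log2 fold change was 2.18 and missed the threshold (limma adjusted p = 0.02).

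Ly9, or CD229, is a self-binding receptor of lymphocytes that is also found on macrophages. Its control levels were 269, 256, 218, 295 and 478 CPM, and its ox-LDL levels 646, 507, 633, 556 and 1123 CPM. The groups did not overlap in TMM-normalized CPM, although control 5 came close to ox-LDL 2. The means were 303 ± 101 CPM and 693 ± 247 CPM (SD, n = 5), with a log2 fold change of 1.19, a standard error of 0.30 and an adjusted p of 0.0111, just over the threshold. In FPKM the groups overlapped, at 104 to 232 in control and 127 to 398 with ox-LDL. Ly9 passed with DESeq2 (adjusted p = 4.55e-04), without control 5 (adjusted p = 0.00543) and without ox-LDL 2 (adjusted p = 0.0039), and its adjusted p reached 0.102 under other settings. In both groups replicate 5 was the highest library for Ly9 and for Slamf7.

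Cd48 is a receptor tethered to the membrane by a lipid anchor and serves as the ligand of CD244 (2B4) on NK cells and of CD2. It had 531, 328, 283, 477 and 278 CPM in control libraries and 83.1, 170.4, 66.3, 54.2 and 102 CPM in ox-LDL libraries. The highest ox-LDL library, replicate 2, was below the lowest control library. The mean fell from 379 ± 117 CPM to 95.1 ± 45.7 CPM (SD, n = 5), with a log2 fold change of -1.996, a standard error of 0.34 and an adjusted p of 0.00119. Its receptor Cd244a was barely detected, with at most 30 counts in any library, and Cd2 with at most 10.

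Cd84, or SLAMF5, is a self-binding receptor of platelets, B cells and myeloid cells. Its levels were 1724, 1289.5, 1272, 1594 and 1086 CPM in control libraries and 706, 1082, 662, 578 and 825 CPM in ox-LDL libraries. The groups did not overlap, but ox-LDL 2 lay only just below control 5. The means were 1393 ± 259.8 CPM and 770.5 ± 196 CPM (SD, n = 5), with a log2 fold change of -0.85, a standard error of 0.25 and an adjusted p of 0.0251. Cd84 passed as lower with DESeq2 (adjusted p = 0.00192), with totals alone as scaling (adjusted p = 0.00127) and without ox-LDL 2 (adjusted p = 0.00187), over a range of 8.63e-04 to 0.0734. Of the platelet list, Gp1bb and Gp9 were at or near 0, while Rgs18 dropped from 464 to 1396 counts in control to 3 to 104 counts in ox-LDL libraries and Pf4 went up, and their part in the Cd84 level was not tested.

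Cd48 and Cd84 varied together from library to library. Over the 10 libraries Pearson's r of log2(CPM + 1) was 0.988, and after each group's mean was removed it was 0.982. In TMM-normalized CPM both were highest in control 1 and control 4 among controls and in ox-LDL 2 among ox-LDL libraries, whereas in FPKM ox-LDL 1 was the highest ox-LDL library for both (95.5 against 95.2 in ox-LDL 2 for Cd48, and 298 against 271 for Cd84). In control 1, control 4 and ox-LDL 2 long genes tended to lie below their usual level, with Spearman correlations across 12235 genes of -0.593, -0.491 and -0.66 between deviation and length, against 0.0874 to 0.511 in the others. Cd48 is short (about 1010 bases) and Cd84 long (about 2789 bases), and the part of this trend in their shared pattern was not tested. With this length trend removed, the log2 fold change was -2.05 for Cd48 (adjusted p = 8.02e-06) and -0.81 for Cd84 (adjusted p = 0.0283). The trend was taken from each library's deviation from its own group mean, so a length difference between the groups stays in. The removal narrows the spread within groups and the test does not allow for it, so these p values can be too small. The genes whose pattern was next most like Cd84 were Casp6, Pex7, Dcxr and Gm35231, with r of 0.981 to 0.987 over the same libraries. Genes of 1 library share its depth and composition, so these are descriptions.

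Slamf9, a receptor of macrophages and dendritic cells with a short tail, showed no separation of the groups. Control libraries held 38.6, 45.3, 42.7, 32.0 and 18.7 CPM, and ox-LDL libraries 38.4, 18.7, 8.34, 9.81 and 33.4 CPM. Replicates 3 and 4 of ox-LDL were below all controls and replicate 2 was just below control 5, the lowest, whereas replicates 1 and 5 were within the control range. The means were 35.5 ± 10.6 CPM and 21.7 ± 13.7 CPM (SD, n = 5), a log2 fold change of -0.71 with a standard error of 0.42 (adjusted p = 0.237).

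Sh2d1b1 encodes EAT-2, the SH2-domain adaptor that binds the phosphorylated tails of SLAM receptors and passes their signal on through tyrosines of its own. It was chosen for its fall, and the values that chose it are these. Control libraries had 405, 263, 175, 500 and 304 counts, and ox-LDL libraries 37, 8, 3, 0 and 4. The transcript was present in every control library and close to absent in 4 of the 5 ox-LDL libraries, ox-LDL 1 keeping the most. In CPM this was 22.4, 11.3, 7.49, 25.8 and 13.2 against 1.61, 0.685, 0.146, 0 and 0.239, with means of 16.0 ± 7.73 and 0.536 ± 0.652 (SD, n = 5). Summed counts were 1647 and 52, a ratio of 27.4 in favor of control once divided by the summed TMM-corrected library sizes, with an exact 95% interval of 20.8 to 36.9 for counting error only. The fit gave a log2 fold change of -4.86 (standard error 0.75), and of -6.08 without ox-LDL 1, the ox-LDL library with the most counts. The NK cell markers are scarce in both groups, as given above. Among them, Klrb1c had 5 to 14 counts in control and 0 to 1 in ox-LDL libraries. Klrd1 had 0 to 5 and 0 to 1, and Klra8 had 0 to 5 in control and 0 in all ox-LDL libraries. Klrk1 had 2 to 10 and 2 to 26, and Gzma 0 to 8 and 0 to 12. In the eosinophil and mast cell list, Siglecf had 51 to 132 counts in control and 5 to 12 in ox-LDL libraries. Cpa3 had 8 to 84 and 2 to 29, and Cma1 6 to 69 and 2 to 23. Prg2 and Ear6 went the other way, from 0 in control to at most 2 and 6 counts with ox-LDL. Kit and Fcer1a had at most 6 counts in any library. The part of these cell types in the Sh2d1b1 level was not tested.

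The start region of Sh2d1b1, at chr1:170277068-170277367 on the plus strand of GRCm38.p6, is shown beside that of Cd48, the receptor that fell, at chr1:171681742-171682041 on the plus strand. Capitals mark matches to the motifs named above.
Sh2d1b1: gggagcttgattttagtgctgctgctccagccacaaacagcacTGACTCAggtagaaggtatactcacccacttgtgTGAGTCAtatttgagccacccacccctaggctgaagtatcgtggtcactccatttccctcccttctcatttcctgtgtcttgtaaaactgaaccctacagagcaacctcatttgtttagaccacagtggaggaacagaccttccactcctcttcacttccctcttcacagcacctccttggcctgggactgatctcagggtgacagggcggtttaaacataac
Cd48: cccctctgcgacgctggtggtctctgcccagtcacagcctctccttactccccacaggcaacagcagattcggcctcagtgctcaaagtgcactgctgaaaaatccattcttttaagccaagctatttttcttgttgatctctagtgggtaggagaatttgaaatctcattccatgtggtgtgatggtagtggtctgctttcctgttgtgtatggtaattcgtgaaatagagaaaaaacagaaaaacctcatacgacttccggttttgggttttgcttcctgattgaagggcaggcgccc
The Sh2d1b1 window held AP-1 letters at -207 (TGACTCA) and again at -173 (TGAGTCA).

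Genes with patterns most like Sh2d1b1 over the 10 libraries, by Pearson's r of log2(CPM + 1), were Egln2, a prolyl hydroxylase that acts on hypoxia-inducible factor (r = 0.994), the zinc finger gene Zfp90 (r = 0.991), the interferon-gamma receptor chain Ifngr1 (r = 0.988), the Fanconi anemia gene Fance (r = 0.986) and the mitochondrial thioredoxin reductase Txnrd2 (r = 0.985). These levels were higher in control than in ox-LDL libraries, as 171 ± 31.7 CPM against 54.4 ± 11.2 CPM for Ifngr1 and 16.6 ± 5.07 CPM against 4.54 ± 0.706 CPM for Zfp90 (SD, n = 5). With each group's mean removed, r was 0.837 to 0.952. These genes were picked for their correlation over the same libraries, and Sh2d1b1 had few counts with ox-LDL, so the values are descriptions. Reads of Sh2d1b1 could be shared with its paralog Sh2d1b2, which lies 23767 bases away on chromosome 1, and the counts are uncertain to that extent. Of the 399 coding bases of each, 365 are identical in their alignment (91.5%). Sh2d1b2 was not analysed here, and how many of its reads, if any, were counted under Sh2d1b1 is unknown.

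Other genes of the pathway were read against the share of all genes tested. Of a list of 21 further genes of the pathway, 17 were tested, and edgeR passed 0 as higher, where 9.4% of all genes did, and 2 as lower, where 5.35% did. At an unadjusted p under 0.05 edgeR had 1 as higher and 5 as lower, against 23% and 15.8% of all genes, and DESeq2 passed 1 as higher and 4 as lower, against 13.9% and 9.83%. With 17 genes these are small counts, and nothing particular to the list is read from them. The median log2 fold change of the list was -0.0044, against 0.10 for all genes tested. The groups did not overlap for 0 genes of the list in the higher direction and for 4 in the lower, against 11.6% and 9.11% of all genes tested.

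Dok2, an adaptor that recruits RasGAP and dampens tyrosine kinase signals, had 106, 123, 108, 104 and 83.4 CPM in control and 23.0, 24.9, 13.8, 15.6 and 24.4 CPM in ox-LDL libraries. Its mean fell from 105 ± 14.1 CPM to 20.3 ± 5.23 CPM (SD, n = 5), with a log2 fold change of -2.37, a standard error of 0.22 and an adjusted p of 2.63e-05. Rasa1, which encodes RasGAP itself, had 52.4, 46.5, 57.7, 46.2 and 33.0 CPM in control and 30.8, 13.8, 28.9, 24.4 and 15.9 CPM in ox-LDL libraries. All ox-LDL libraries lay below the lowest control for both genes. The mean of Rasa1 fell from 47.2 ± 9.22 CPM to 22.8 ± 7.62 CPM, with a log2 fold change of -1.05, a standard error of 0.25 and an adjusted p of 0.00895 close to the threshold. With any of 7 libraries left out (control 1, 2, 3 or 4, or ox-LDL 3, 4 or 5), 1 gene of the list passed as lower, and without ox-LDL 2, 4 did.

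Dok1 (log2 fold change 0.18), the phosphatases Ptpn6 (-0.0044), Ptpn11 (0.25) and Inpp5d (0.016), the phospholipases Plcg1 (0.12) and Plcg2 (-0.037) and the kinase Fyn (-0.16), which acts with SAP, had adjusted p from 0.464 to 0.992. Singled out after the values were seen, the guanine nucleotide exchange factor Vav1 had 56.1 to 87.2 CPM in control and 81.4 to 215 CPM in ox-LDL libraries (log2 fold change 0.98, adjusted p = 0.0135). Becn1 and Pik3c3, members of the lipid kinase complex that SLAMF1 is known to bind on phagosomes, had log2 fold changes of -0.47 (adjusted p = 0.0386) and -0.58 (adjusted p = 0.0403). Uvrag of the same complex was at 0.20 (adjusted p = 0.389). The integrin chains Itgam and Itgb2, partners of SLAMF7 in phagocytosis, were at -0.78 (adjusted p = 0.141) and 0.36 (adjusted p = 0.436), and the signaling chains Tyrobp and Fcer1g at -1.20 (adjusted p = 0.0683) and 0.49 (adjusted p = 0.423). Sh2d1a, which encodes the adaptor SAP, had a single count over all 10 libraries, where a library at 0 still allows up to 3 counts. The Cd244a libraries had 8 to 30 counts in control and 2 to 13 with ox-LDL, below the filter on low counts.

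**Figure D2:**
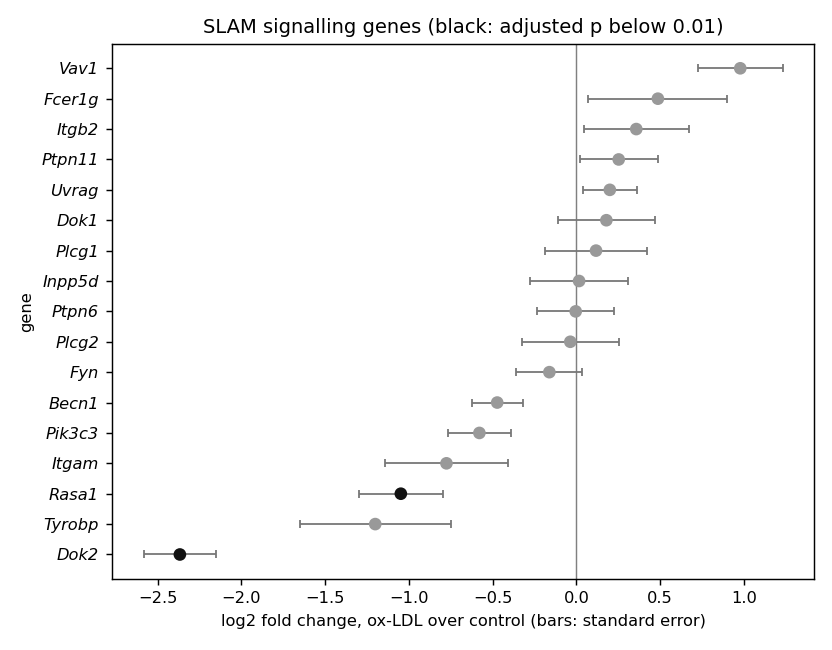
Fitted log2 fold change, ox-LDL over control, of the 17 tested genes of the SLAM signaling list, with bars for the standard error and black points for adjusted p below 0.01. Dok2 (-2.37) and Rasa1 (-1.05) are the black points, and Vav1 (0.98) is the highest of the others.

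Levels can be set side by side between genes only per length, and for this the deposited FPKM was used, which carries no TMM scaling. In control cells Cd84 led with 497 ± 48.1 FPKM, followed by Cd48 with 389.6 ± 74.2 FPKM, their ranges overlapping. Ly9 (139 ± 53.2 FPKM), Slamf7 (104 ± 33.5 FPKM) and Slamf8 (86.0 ± 13.0 FPKM) came next and overlapped their neighbors in the order. Slamf9 (37.4 ± 12.8 FPKM), Sh2d1b1 (12.7 ± 4.92 FPKM), Slamf6 (0.418 ± 0.149 FPKM) and Slamf1 (0.0440 ± 0.0404 FPKM) each lay below the range of the one before. In ox-LDL-treated cells Slamf7 (439.7 ± 161 FPKM), Slamf8 (307 ± 80.2 FPKM), Ly9 (280.1 ± 100 FPKM) and Cd84 (262 ± 23.3 FPKM) led with ranges that overlapped from one to the next. Cd48 (79.5 ± 16.7 FPKM) was below these and above Slamf9 (20.6 ± 15.7 FPKM), Slamf6 (7.33 ± 1.42 FPKM), Slamf1 (5.20 ± 5.02 FPKM) and Sh2d1b1 (0.410 ± 0.603 FPKM), whose ranges overlapped in order (all SD, n = 5).

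The make-up of the receptor transcripts turned over while their sum did not separate the groups. The summed FPKM of the 8 receptors was 1253 ± 73.1 in control (1173 to 1336) and 1402 ± 286 with ox-LDL (1123 to 1887). Cd48 and Cd84 together made up 70.6 ± 6.33% of it in control, between 60.4% and 77.4%, and 25.2 ± 5.82% with ox-LDL, between 17.8% and 32.6%. Slamf7, Slamf8 and Ly9 went the other way, from 26.3 ± 6.75% (19.98% to 37.8%) to 72.5 ± 6.06% (65.4% to 79.5%). No control library came within the ox-LDL range of either share. These sets follow the direction in which the receptors moved in these same libraries, so the separation is no independent result. The shares also come close to adding up to the whole, so each largely restates the other. Ratios within a library do not depend on its total or TMM factor. They can depend on the length trend described above where lengths differ, as for Slamf7 (about 2656 bases) and Cd48 (about 1010 bases). Slamf7 over Cd48 was 0.161 to 0.514 in control and 3.72 to 8.99 with ox-LDL, and Slamf8 over Slamf9 was 1.503 to 3.30 and 4.86 to 37.9. For each 100 FPKM of Slamf7 there were 7.20 to 20.4 FPKM of Sh2d1b1 in control libraries and 0 to 0.414 FPKM in ox-LDL libraries. Sh2d1b1 was chosen for its fall, so a drop in this ratio follows from that choice. The shares come from the same libraries as the tests above and are a description of them.

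**Figure D3:**
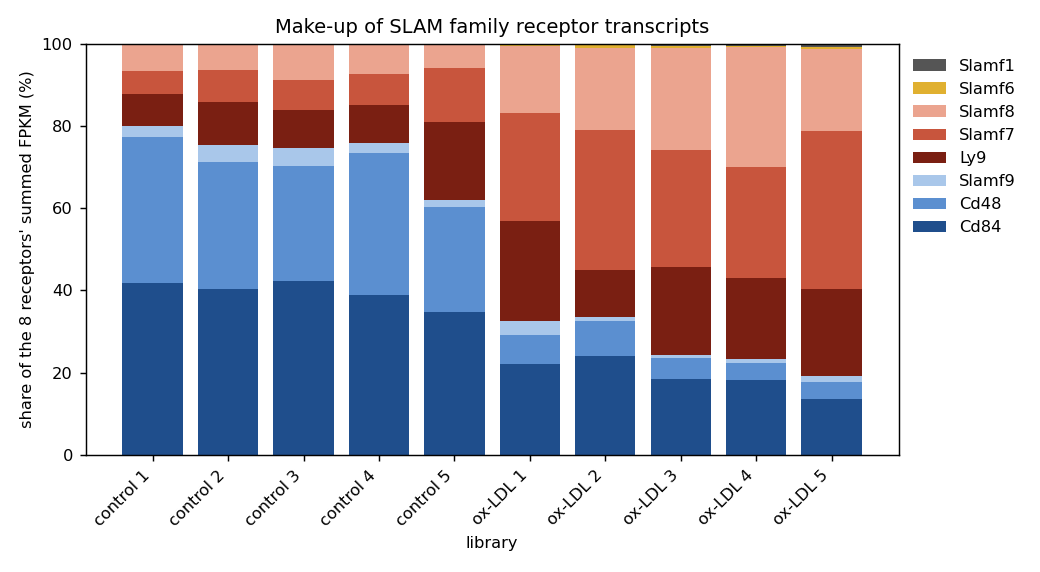
Share of the summed FPKM of the 8 receptors taken by each, in percent, with a stacked bar for each of the 10 libraries. Cd84 and Cd48, in blue at the bottom, hold 60.4% to 77.4% of the control bars and 17.8% to 32.6% of the ox-LDL bars.

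All 9 genes lie on chromosome 1, in 3 groups separated by more than 500 kb, and no annotated gene overlaps any of them (mm9, GENCODE vM1). Sh2d1b1 stands alone at chr1:172207507-172216900. A run of 360329 bases then holds Ly9 (chr1:173518755-173537541), Slamf7 (chr1:173562534-173579149), Cd48 (chr1:173612140-173635389), Slamf1 (chr1:173697258-173731315), Cd84 (chr1:173769828-173820849) and Slamf6 (chr1:173847646-173879083), the first pair on the minus strand and the rest on the plus strand. Slamf9 (chr1:174405489-174408706, plus strand) and Slamf8 (chr1:174511508-174520699, minus strand) form the last group. Along the run of 6, the sign of the fitted change switched between 4 of the 5 pairs of neighbors. Slamf7 and Cd48, which point away from each other with 32990 bases between them, had log2 fold changes of 2.23 and -1.996, and Cd84, between Slamf1 and Slamf6, was the only one of those 3 with a negative value. The 4 other annotated genes inside that run were not analysed here. Of the 6 others between Slamf9 and Slamf8, 4 were tested, with edgeR adjusted p from 0.0299 to 0.565.

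**Figure D4:**
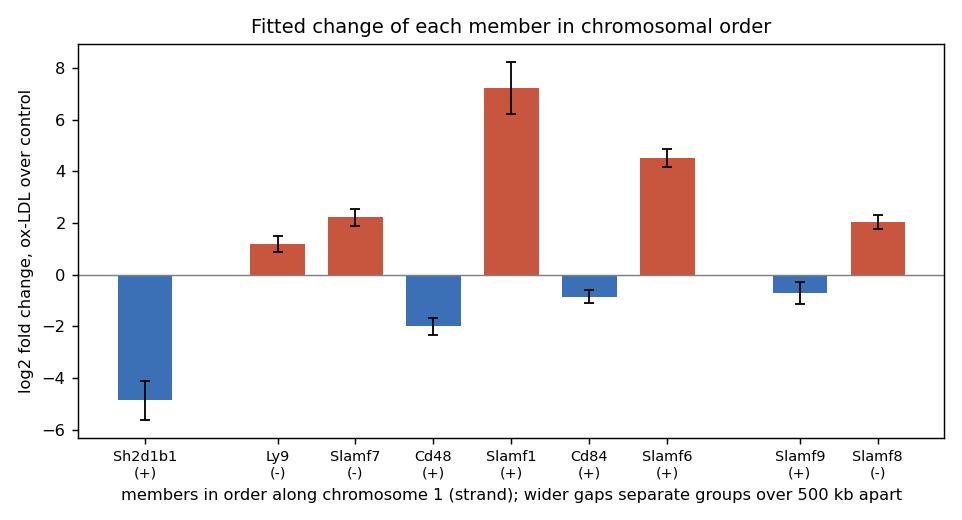
Fitted log2 fold change, ox-LDL over control, of the 9 genes in their order along chromosome 1 with strand in brackets, with bars for the standard error and wider gaps between groups more than 500 kb apart. Red bars (Slamf1 at 7.24 the tallest) and blue bars (Cd48 at -1.996, Cd84 at -0.85) alternate in the run of 6 from Slamf7 on, Ly9 and Slamf7 at its start being both red.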

How the data were processed

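RNA was sequenced on a BGISEQ-500 instrument. Per the labels and the study's methods, read quality was inspected in FastQC. HISAT2 (version 2.0.5) did the alignment to mm9, SAMtools (version 1.4) the sorting and StringTie (version 1.3.3.13) the transcript assembly. The counting step and its strand setting are not given in the sources used here, so genes that share reads with a paralog or an antisense gene are uncertain. The authors deposited estimated counts per gene, not normalized, of which 13.6% were not whole, and they were rounded here. A second table type deposited by the authors gives values that they had scaled by gene length and sequencing depth, read here as FPKM. The unit is not named in the files, and it was inferred because count over value and library total gave a length whose coefficient of variation was under 5% for 88.2% of 5516 genes.

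Of 39488 rows, 9788 circular RNA rows were left out. Symbols came from the RefSeq table (GRCm38.p6), which matched 22818 of 23382 NCBI identifiers. Genes passing edgeR's low-count filter by group (12654) were fitted with edgeR 4.0.16 (TMM, robust quasi-likelihood, R 4.3.3) over all 10 libraries without covariates, and p-values were adjusted by Benjamini-Hochberg. The biological coefficient of variation was 37.3%. In simulated data with 200 changed genes among the 12654 of this comparison, the test recovered 3 of 67 genes at 2-fold, 39 of 67 at 4-fold and 54 of 66 at 8-fold with 0 false calls. A member below the filter would have had an exact permutation test over samples, and none needed it. Alternatives used DESeq2 1.42.0 and limma 3.58.1 (voom, and log2(FPKM + 1) or log2(FPKM + 0.1)), other scalings and filters, a replicate block and libraries left out.

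Named were the 9 genes, the listed pathway genes, genes between chromosome neighbors, and the 5 genes with the highest Pearson correlation with Sh2d1b1 and with the member of highest mean FPKM (Cd84). The members, gene lists and motifs were chosen with earlier results of these data known. No libraries agreed within sampling noise. Nothing beyond the count of biological replicates says whether the 5 samples of a group are separate animals, and p-values measure the spread between these samples. Intervals cover counting error only.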

Additional observations from a re-analysis of the deposited data

Results flagged for a closer look

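A library was singled out when its gap to the nearest library of its group took more than 0.71 of the group's range, the Dixon limit for 5 values. Of 40 groups of values examined, 6 had such a library, where chance gives about 2 if the groups are independent and normally distributed. They are not independent, since CPM and FPKM of a gene come from the same libraries, so no excess is read from these counts. Slamf1 was at 35.8 CPM in ox-LDL 5, with the next library at 9.52 CPM. Slamf7 was at 162 FPKM in control 5, with the next at 101 FPKM, and at 726 FPKM in ox-LDL 5, with the next at 384 FPKM. Ly9 was at 232 FPKM in control 5, with the next at 125 FPKM, and at 1123 CPM in ox-LDL 5, with the next at 646 CPM. Sh2d1b1 was at 1.47 FPKM in ox-LDL 1, with the next at 0.310 FPKM. Replicate 5 of either group thus accounts for 5 of the 6, all on the high side, and the cause was not tested.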

How the results depend on the processing

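No result turned direction under any alternative that was run. The count of receptors passing as higher, 4, was 3 to 5 across alternatives and 4 to 5 with each library left out. The count passing as lower, 1, was 2 with DESeq2, with upper-quartile scaling, with library totals alone, in the 3 fits on log2 FPKM (pseudocount 1, 0.1, and 1 with no filter), at an adjusted p below 0.05 and with control 5, ox-LDL 2 and ox-LDL 5 left out together, an alternative chosen after seeing the data, and 0 with a log2 fold change beyond 2 required. With each library left out it was 1 to 2, and 2 came without ox-LDL 2. Of the pathway list, 0 passed as higher, against 1 with DESeq2, with the length trend removed, at an adjusted p below 0.05 and with the 3 libraries out, and 0 to 1 with each library left out (1 without ox-LDL 2). The 2 passing as lower became 4 with DESeq2, at an adjusted p below 0.05 and with the 3 libraries out, 5 with the length trend removed, and 1 with at least 10 counts in every library or a log2 fold change beyond 2 required, and 1 to 4 with each library left out. The cause of these moves was not tested, apart from the thresholds and filters, which act by construction. Removal of the length trend also narrows the spread within groups by construction, so its counts can be too high, here and over all genes.

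Same-numbered libraries had correlations of 0.0238, -0.272, 0.443, -0.285 and 0.411 between their deviations from the group means. Of 5 controls, 1 correlated best with its own number. The deviations also carry the length trend described above, so they cannot decide whether the replicate numbers pair the samples. With a replicate block, 1434 genes passed against 1866, with 5 receptors higher and 1 lower and with 0 pathway genes higher and 2 lower, and Ly9 passed (adjusted p = 0.00949).

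The size of the Sh2d1b1 change was -5.81 with voom and -3.28 on log2(FPKM + 1), with and without the filter. Slamf1 was not tested with at least 10 counts in every library or in the filtered FPKM fits. Over all genes 1866 passed (1189 higher, 677 lower), against 3009 with DESeq2, 3061 with the length trend removed, 3257 without ox-LDL 2 and 3599 with the 3 libraries out. The split was 956 higher and 808 lower with upper-quartile scaling, 704 and 583 with totals alone and 555 and 750 on log2(FPKM + 1). Low counts limit Slamf1 in control and Sh2d1b1 in ox-LDL libraries.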
